A study of Mus musculus with 17 samples.

Results

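A set of 8 genes of the AP-1 and BATF families was followed in an ATAC-seq table of mouse B cell differentiation: Jun, Junb, Jund, Fos, Fosb, Fosl2, Batf and Batf3. In ATAC-seq a transposase inserts sequencing adapters wherever DNA is accessible, and the reads pile up there. All regions were taken for which the nearest transcript or nearest transcription start carried one of these 8 names, which gave 56 of 66177 regions. There were 16 regions at Fos, 9 at Fosb, 9 at Batf3, 8 at Batf, 5 at Junb, 4 at Jun, 3 at Jund and 2 at Fosl2. Accessibility is given as RPPM, the reads in a region for every 1000000 reads in all regions of that library.

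The cells were naive B cells (nB, B220+ Fas- GL7-) and PE-specific germinal center B cells (GCB, B220+ Fas+ GL7+ PE+) of the lymph node, and plasma cells of the bone marrow (BMPC). All mice carried floxed Dnmt3a and Dnmt3b, the de novo DNA methyltransferases, and are described as B6;129S4-Dnmt3atm3.1Enl Dnmt3btm5.1Enl/Mmnc. Dnmt3-sufficient mice (C, Dnmt3afl/fl Dnmt3bfl/fl) lacked Cre, and Dnmt3-deficient mice (KO, Dnmt3afl/fl Dnmt3bfl/fl with Cre) expressed it in cells of the B lineage, so that C and KO cells differ in the presence of Cre as well. The mice were young adults. There were 3 C and 2 KO nB libraries, all from male mice that were not immunized. The 2 C and 4 KO GCB libraries were pools of 2 mice, female except for 1 male pool in each genotype. The 3 C and 2 KO BMPC libraries were all from female mice. Mice that gave GCB and BMPC had received phycoerythrin (PE) in complete Freund's adjuvant 30 days earlier. Cell type can therefore not be told apart from sex, tissue and immunization when nB and BMPC are compared. The same holds for immunization and pooling when nB and GCB are compared, and for tissue and pooling when GCB and BMPC are compared. In both of these comparisons the sexes also differ in part. A further KO BMPC sample in the labels has no column in the table and was not analysed here.

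AP-1 is a family of dimers. A Jun protein (c-Jun, JunB or JunD) pairs with another Jun protein or with a Fos protein (c-Fos, FosB, Fra-2 from Fosl2) through a leucine zipper. The pair binds a short motif, searched here as TGANTCA. This pattern allows any base at N and is looser than the site itself. Fos, Fosb, Jun and Junb are immediate-early genes, which are transcribed within minutes of a signal through receptors and MAP kinases without new protein synthesis. At the Fos promoter this response runs through the serum response factor SRF, which binds the CArG box. BATF and BATF3 are small members of the family that pair with Jun proteins and bind beside IRF4 or IRF8 in lymphocytes, and BATF is needed for class switching in B cells.

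The CArG box was the motif whose share differed most between these regions and the table as a whole among the 8 searched on both strands. It was present in 7 of the 56 regions, or 12.5%, against 2.77% of the 65893 regions on named chromosomes. The 7 matches lie at Fos, Fosb, Jun and Junb, and all are shown. Each is given 5′ to 3′ on the strand of its gene (mm9) with the box in capitals and 10 bases on either side. They lie at chr12:86814521-86814550 (Fos −0.1 kb), chr12:86819121-86819150 (Fos +4.7 kb), chr12:86827054-86827083 (Fos +12.1 kb), chr7:19895647-19895676 (Fosb −0.1 kb), chr8:87504048-87504077 (Junb −1.4 kb), chr8:87500513-87500542 (Junb +2.2 kb) and chr4:94730431-94730460 (Jun −11.5 kb). Regions are named by gene and by the distance of their centre from the gene start in the GENCODE annotation. Of these 7 regions, only Fos +4.7 kb was called higher from C nB to C BMPC in the test described below. Fosb +8.5 kb, Jun +3.6 kb and Junb +3.9 kb, which were also called higher, held no CArG box. A match describes the letters and does not show that SRF was bound.
Fos −0.1 kb: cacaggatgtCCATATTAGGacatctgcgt
Fos +4.7 kb: cacaccttagCCTTAAAAGGtttcccttgg
Fos +12.1 kb: tccgttctgcCCATATTTGGaaaggcgccg
Fosb −0.1 kb: tggccgagctCCTTATATGGctaattgcgt
Junb −1.4 kb: cttcctgtgcCCTAATATGGgtgctgggga
Junb +2.2 kb: gaagctctgcCCATATATGGgcctattcag
Jun −11.5 kb: gctttcccttCCATTTTTGGccactaagtt

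The first base of the box lies at −309 from the Fos start and at −272 from the Fosb start. The other motifs were about as common in these regions as in all regions. The AP-1 motif TGANTCA was in 14.3% against 16%, the cyclic AMP response element TGACGTCA in 1.79% against 1.56%, the IRF-BATF composite GAAATGANT in 1.79% against 3.05%, the E2A motif CAGCTG in 30.4% against 32.4%, the PU.1 core GGAAGT in 44.6% against 43.2%, the IRF core GAAAC in 75.0% against 72.6% and the octamer ATGCAAAT in 8.93% against 5.87%. Their median width was 561 bp (510 bp for all regions) and their median GC content 53.8% (48.9% for all regions).

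The only region that held both an AP-1 motif and an IRF-BATF composite was Fosb −11.6 kb, in a window of 104 bases at chr7:19906934-19907037. It is shown on the Fosb strand with both motifs in capitals.
Fosb −11.6 kb: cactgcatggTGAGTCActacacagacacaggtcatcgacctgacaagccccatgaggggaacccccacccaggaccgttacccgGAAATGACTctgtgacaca

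Differences were tested with limma across all 66177 regions, and a region was called at a Benjamini-Hochberg adjusted p of at most 0.01 and a log2 fold change of at least 1 in size, on the log2(RPPM + 1) scale. From C nB to C BMPC, 16 of the 56 regions were called higher and 3 lower, when 18% of all regions were called higher and 20.1% lower. The median log2 fold change was 0.40 over the 56 regions and 0.03 over all regions. Mean accessibility over all libraries had a median of 16.8 RPPM in the 56 regions and 5.99 RPPM in all regions. The log scale used understates the change of low regions, so the shares do not come from regions of like signal. From C nB to C GCB, 12 regions were called higher and 2 lower, against 14.2% and 8.47% of all regions. From C GCB to C BMPC, 11 were called higher and 9 lower, against 11.3% and 19.1%. These 3 comparisons share libraries, so their counts are not independent. The split between higher and lower calls over all regions moved under quantile normalization, to 7418 higher and 7053 lower from C nB to C GCB and 9585 higher and 9871 lower from C GCB to C BMPC, where the 56 regions gave 10 higher and 1 lower, and 10 higher and 5 lower. The KO cells gave 15 higher and 3 lower from nB to BMPC (background 18.4% and 16.9%), 11 higher and 3 lower from nB to GCB (18.4% and 7.84%), and 13 higher and 4 lower from GCB to BMPC (12.1% and 19.9%). Quantile normalization gave 7679 higher and 7477 lower over all regions from KO nB to KO GCB, and 10270 higher and 10345 lower from KO GCB to KO BMPC, with 9 higher and 2 lower and 11 higher and 2 lower of the 56. From KO nB to KO BMPC it turned the balance over all regions from 12172 higher and 11178 lower to 10709 and 11397, with 12 higher and 3 lower of the 56. In all, 22 of the 56 regions were called in none of these 6 comparisons between cell types, among them the start-site regions of Jun, Junb, Jund, Fos and Batf. Other regions with high means were also called in none, such as Jun +1.5 kb at 31.9 RPPM in C nB and 23.9 in C BMPC, Fosb −10 kb at 61.3 and 86.4, Batf +18.9 kb at 32.1 and 34.6, and Batf3 +27.6 kb at 16.4 and 12.9 RPPM.

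**Figure D1:**
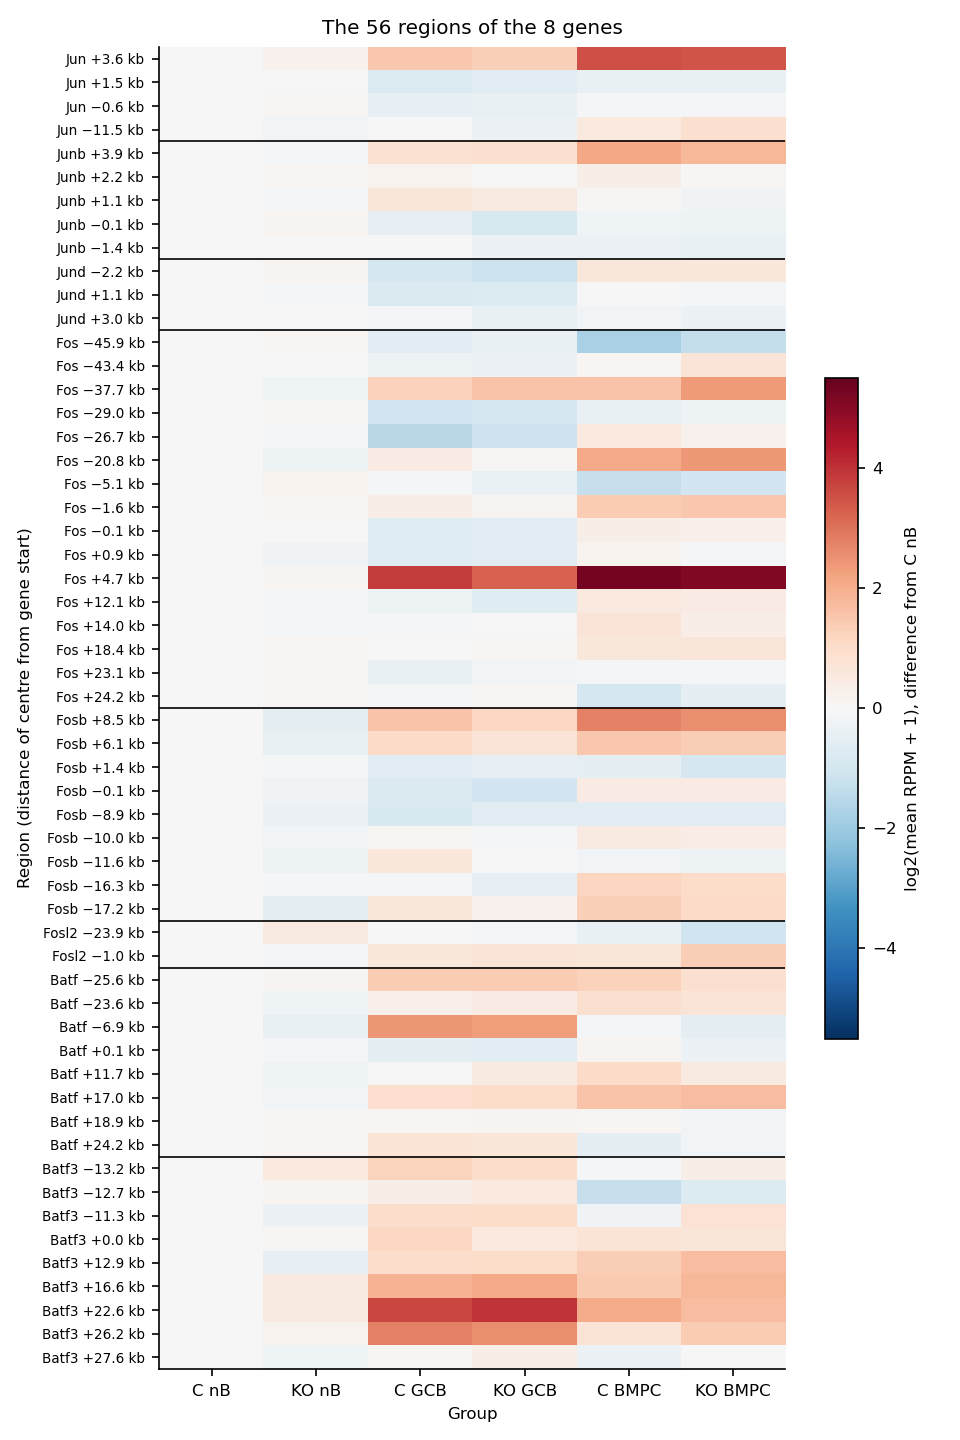
Rows are the 56 regions, grouped by gene and named by the distance of their centre from the gene start, and columns are the 6 groups. Color gives the group's log2(mean RPPM + 1) minus that of C nB (white for no difference), and Fos +4.7 kb, Fosb +8.5 kb and Jun +3.6 kb are the darkest red in BMPC of both genotypes.

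The largest increase was in a region just past the 3′ end of Fos. Fos +4.7 kb (chr12:86818329-86820729, 2401 bp) begins 106 bases past the annotated end of Fos and lies outside the gene. It was at 3.65, 5.09 and 4.47 RPPM in the C nB libraries and at 204, 193 and 231 RPPM in the C BMPC libraries. The C GCB libraries held 55.0 and 97.0 RPPM. The 3 cell types did not overlap, with nB lowest, GCB between and BMPC highest. From C nB to C BMPC the log2 fold change was 5.29 ± 0.22 (SE, limma adjusted p = 6.65e-17), which ranked 9 among all regions, and from C nB to C GCB it was 3.79 ± 0.24 (adjusted p = 1.84e-12). The KO libraries held 5.76 and 4.33 RPPM in nB, 29.7, 52.8, 41.2 and 76.9 RPPM in GCB and 181 and 186 RPPM in BMPC, in the same order of cell types. Bases 86818986 to 86819285 of chromosome 12, around the CArG box of this region, are shown on the Fos strand with matches to the searched motifs in capitals, here the CArG box running into an IRF core on the other strand.
Fos +4.7 kb: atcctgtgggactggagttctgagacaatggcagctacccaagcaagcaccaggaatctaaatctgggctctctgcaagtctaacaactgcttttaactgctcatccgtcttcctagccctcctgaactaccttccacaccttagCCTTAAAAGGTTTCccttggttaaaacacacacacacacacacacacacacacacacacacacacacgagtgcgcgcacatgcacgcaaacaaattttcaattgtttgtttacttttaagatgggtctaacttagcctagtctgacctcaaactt

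Fosb and Jun had regions of the same kind. Fosb +8.5 kb (chr7:19885914-19887945, 2032 bp) begins 125 bases past the end of Fosb. It was at 39.7, 28.1 and 28.3 RPPM in C nB, at 72.1 and 120 RPPM in C GCB and at 215, 219 and 248 RPPM in C BMPC, again without overlap. The log2 fold change from C nB was 2.81 ± 0.20 in BMPC (adjusted p = 4.31e-12, limma) and 1.53 ± 0.23 in GCB (adjusted p = 5e-06, limma). Jun +3.6 kb (chr4:94714487-94716088) spans the end of Jun, from position −363 to position 1238 relative to it. It was at 10.5, 13.4 and 16.4 RPPM in C nB, at 34.7 and 45.0 RPPM in C GCB and at 157, 151 and 196 RPPM in C BMPC. The log2 fold change was 3.56 ± 0.31 in BMPC (adjusted p = 1.67e-10, limma) and 1.51 ± 0.35 in GCB (adjusted p = 0.000986, limma). The GCB call at Jun was lost without the second C GCB library, with a log2 fold change of 1.33. The BMPC libraries were the highest at both regions, and per kilobase the 3 end regions were at similar levels in C BMPC, with 87.2 RPPM per kb at Fos, 112 at Fosb and 105 at Jun.

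At Junb the change was smaller, and its place depends on the annotation. Junb +3.9 kb (chr8:87498397-87499108), 1703 to 2414 bases past the GENCODE end of Junb but at the 3′ end of the longer Junb transcript of the table, rose from 10.5 ± 2.4 RPPM in C nB (SD, n = 3) to 49.2 ± 5.1 in C BMPC (SD, n = 3), a log2 fold change of 2.14 ± 0.20 (adjusted p = 4.3e-10, limma). Junb +2.2 kb, which covers the GENCODE end, was at 53.8 ± 1.0 RPPM in C nB and 67.8 ± 2.5 in C BMPC (SD, n = 3 each), a log2 fold change of 0.33 that was not called. At Jund, whose gene is not of the immediate-early kind, the region over the 3′ end (Jund +3.0 kb) was at 50.2 ± 2.0 RPPM in C nB and 45.4 ± 5.0 in C BMPC (SD, n = 3 each).

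In GCB both sexes were present, and the male pool had more accessibility than the female pools at the Fos, Fosb and Jun end regions in both genotypes. At Fos +4.7 kb the male pools held 97.0 RPPM in C and 76.9 RPPM in KO, and the female pools 55.0 RPPM in C and 29.7 to 52.8 RPPM in KO. At this region the male nB libraries had the lowest values and the female BMPC libraries the highest. The male GCB pool was 1 pool per genotype under the same pool name, so sex and pool cannot be told apart there. The part of sex in these values was not tested. The lowest KO GCB value at Jun +3.6 kb, 9.91 RPPM, was in the library with the fewest reads, 907959 in regions, where 3 reads equal 3.30 RPPM.

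Gene ends were also counted, without regard to the activity of the gene. Over all genes in the table, 2850 regions reached into the stretch from 500 bases before to 3000 bases past a transcript end, and 17.7% of them were called higher from C nB to C BMPC, close to the share of all regions. Among the 56 regions, 10 lay in such a stretch of the nearest transcript and 5 of them were called higher: the end regions of Fos, Fosb, Jun and Junb, and Batf3 +12.9 kb. Of the other 5, 3 lie at the end of Nsl1, the gene before Batf3, and 1 each at Batf and Jund. The ends are those of the table, so that Junb +2.2 kb, at the GENCODE end, was not counted. This grouping was made after the values had been seen.

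**Figure D2:**
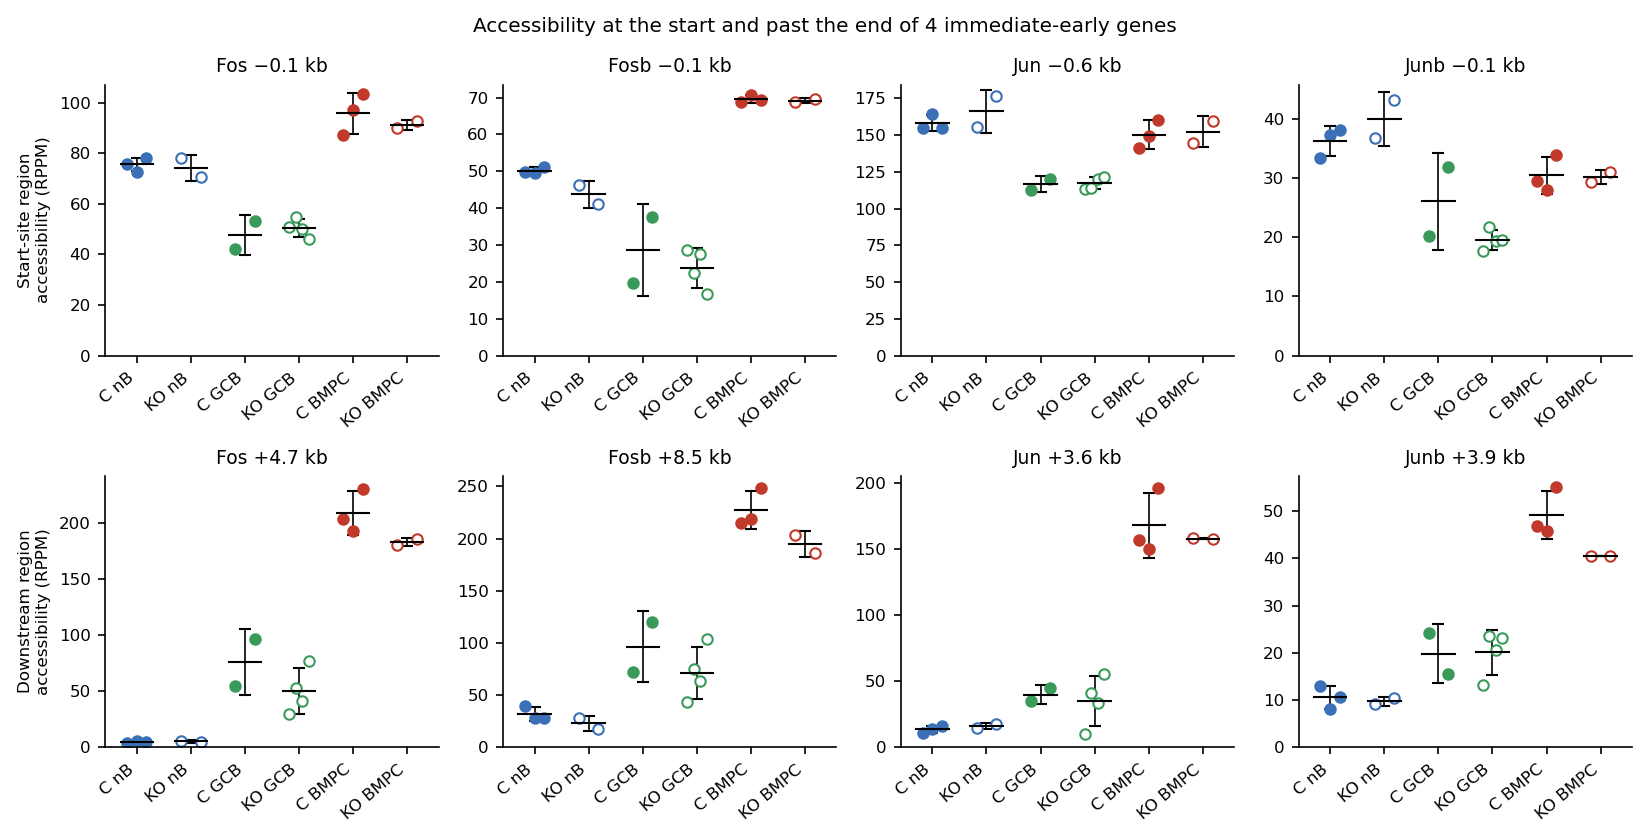
Each point is 1 library, filled for C and open for KO, with the group mean (line) and SD (bars), and the vertical axis gives RPPM from 0. The upper row shows the start-site regions of Fos, Fosb, Jun and Junb, and the lower row the downstream region of each that changed most, where the BMPC libraries lie above all nB libraries.

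The start sites of the same genes behaved differently. The start-site region of Fos was at 75.8, 72.7 and 78.2 RPPM in C nB, at 42.2 and 53.4 RPPM in C GCB and at 87.3, 96.9 and 103 RPPM in C BMPC. These groups did not overlap, but the log2 fold change from C nB to C BMPC was 0.34 ± 0.10, below the size required, and that to C GCB was −0.66 ± 0.11. At Jun the start-site region held 158 ± 5.6 RPPM in C nB, 117 ± 5.5 in C GCB (SD, n = 2) and 150 ± 9.6 in C BMPC (SD, n = 3 for nB and BMPC). It did not pass the test from nB to BMPC, with a log2 fold change of −0.07 ± 0.07 (adjusted p = 0.429, limma). At Fosb the start-site region rose from 28.6 ± 12.5 RPPM in C GCB (SD, n = 2) to 69.6 ± 1.1 in C BMPC (SD, n = 3), a log2 fold change of 1.32 ± 0.19 (adjusted p = 1.84e-06, limma) that was 0.88 and not called without the first C GCB library, and its change from C nB, 0.46, was not called.

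The region nearest to the start was used for each gene. At Jund it lies inside the gene, from 614 to 1570 bases past the start, and at Fosl2 upstream, from −1569 to −405, so neither covers the start itself. Compared per kilobase in C nB, the levels were 143 RPPM per kb at Jund, 116 at Junb, 97.6 at Jun, 87.0 at Fos and 63.0 at Fosb. Batf followed with 26.4, Fosl2 with 11.6 and Batf3 with 5.74 RPPM per kb. In C BMPC they were 142 at Jund, 110 at Fos, 97.0 at Junb, 92.8 at Jun and 87.4 at Fosb, with the mean of Fos now above those of Junb and Jun. Per kilobase, however, the C BMPC libraries of Junb overlapped both those of Fos and those of Jun. The regions themselves held 30.5 ± 3.1 RPPM over 314 bp at Junb, 95.8 ± 8.1 over 868 bp at Fos and 150 ± 9.6 over 1619 bp at Jun (SD, n = 3).

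Regions upstream of Fos also rose in BMPC. Fos −1.6 kb went from 15.0 ± 0.5 RPPM in C nB to 40.7 ± 1.2 in C BMPC (SD, n = 3 each), a log2 fold change of 1.38 ± 0.18, and Fos −20.8 kb from 2.7 ± 1.0 to 14.8 ± 1.9 RPPM, a log2 fold change of 2.12 ± 0.27. In Fos −20.8 kb, 15.2% of the 31-base windows also occur elsewhere in mm9. Fos −37.7 kb was higher in both later cell types, at 4.1 ± 0.7 RPPM in C nB, 11.1 ± 1.8 in C GCB (SD, n = 2) and 14.1 ± 1.7 in C BMPC. Other regions of the Fos locus fell: Fos −45.9 kb from 8.9 ± 1.7 to 1.8 ± 0.7 RPPM between C nB and C BMPC, and Fos −26.7 kb from 26.5 ± 1.4 RPPM in C nB to 8.7 ± 2.3 in C GCB, returning to 39.4 ± 8.3 in C BMPC.

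**Figure D3:**
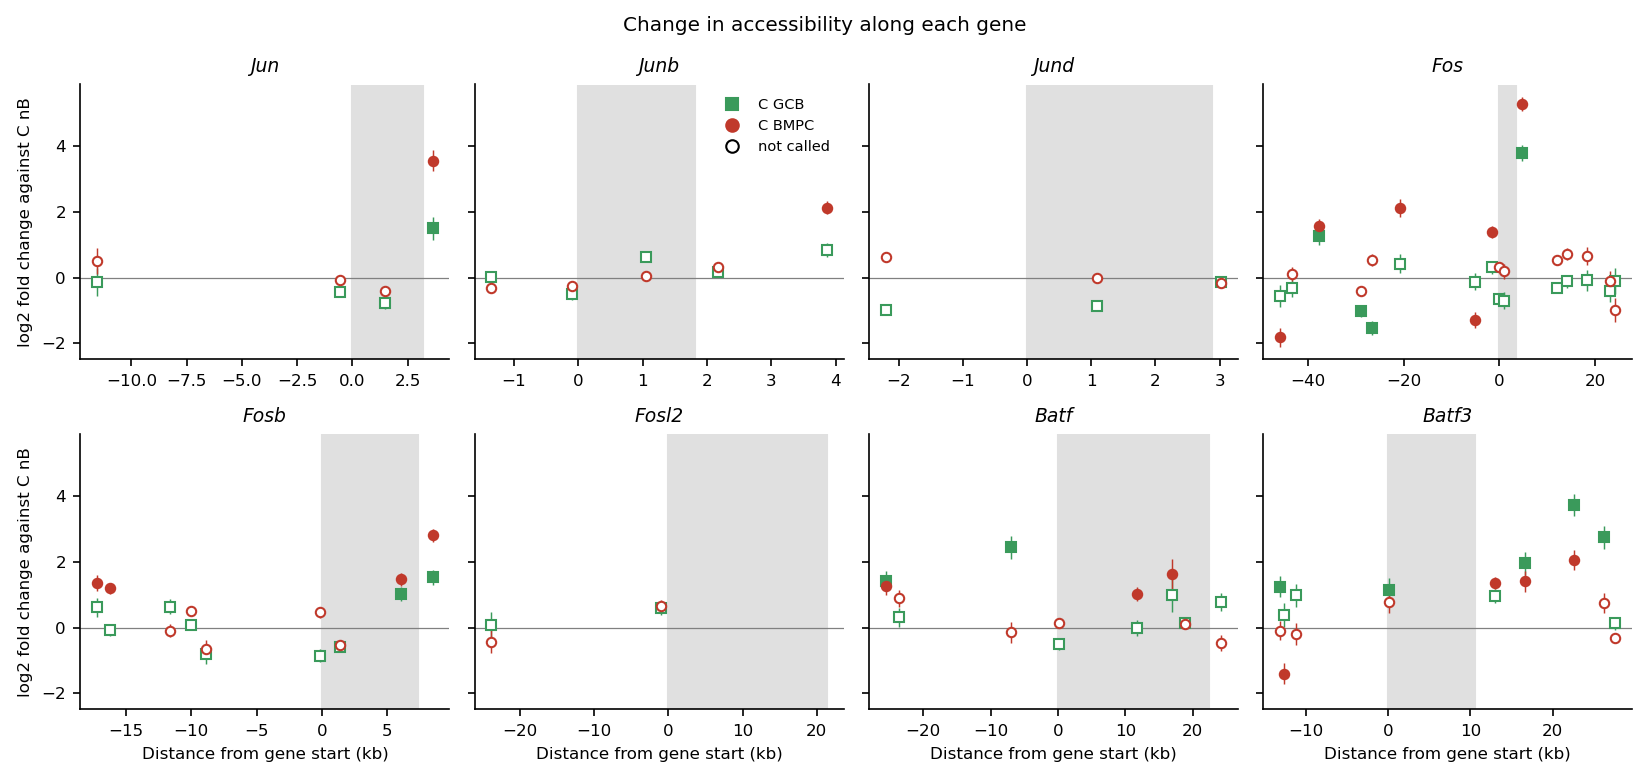
Each panel is 1 gene, with the distance of a region's centre from the gene start in kb on the horizontal axis, the log2 fold change against C nB on the vertical axis and the gene body shaded. Squares are C GCB, circles are C BMPC, filled symbols were called, and bars are SE from limma. The highest symbols at Fos, Fosb and Jun lie at or just past the end of the shaded gene, that at Junb lies farther past it, and those at Batf and Batf3 belong to GCB.

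Batf and Batf3 had regions that were open mainly in GCB. Batf −6.9 kb (chr12:87020491-87020874) was at 7.92 and 8.43 RPPM in C GCB, against 0.974, 0.754 and 0.372 RPPM in C nB and 0.780, 0.730 and 0.156 RPPM in C BMPC. The KO GCB libraries held 5.51, 8.27, 10.1 and 5.59 RPPM, and no nB or BMPC library of either genotype reached 1 RPPM. The log2 fold change was 2.45 ± 0.36 from C nB to C GCB (adjusted p = 3.1e-06, limma) and −2.59 ± 0.36 from C GCB to C BMPC (adjusted p = 7.83e-07, limma). The central 300 bases of this region, chr12:87020533-87020832, are shown on the Batf strand with matches to the searched motifs in capitals. They are an octamer on the other strand (ATTTGCAT), an IRF core on the other strand (GTTTC) and a PU.1 core (GGAAGT). No AP-1 motif was found in this window.
Batf −6.9 kb: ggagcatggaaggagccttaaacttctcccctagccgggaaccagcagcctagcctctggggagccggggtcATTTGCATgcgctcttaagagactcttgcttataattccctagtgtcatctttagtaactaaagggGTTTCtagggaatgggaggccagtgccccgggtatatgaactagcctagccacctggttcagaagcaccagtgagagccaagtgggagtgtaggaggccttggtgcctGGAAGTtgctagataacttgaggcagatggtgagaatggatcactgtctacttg

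The Batf start-site region was not called in any comparison, at 30.0 ± 0.9 RPPM in C nB, 20.9 ± 0.3 in C GCB and 32.9 ± 1.6 in C BMPC (SD, n = 3, 2 and 3). Batf −25.6 kb was higher in both later cell types, from 1.8 ± 0.3 RPPM in C nB to 6.3 ± 0.4 in C GCB and 5.7 ± 0.4 in C BMPC. Inside the gene, Batf +17.0 kb rose from 1.1 ± 0.8 RPPM in C nB to 5.1 ± 0.7 in C BMPC (log2 fold change 1.63 ± 0.45, adjusted p = 0.00316, limma), a call that was lost without C nB replicate 1 or C BMPC replicate 3 (log2 fold changes of 1.30 and 1.54). Batf +11.7 kb rose from 7.9 ± 0.5 to 17.2 ± 3.7 RPPM (log2 fold change 1.02, and 0.86 without the second C BMPC library, no longer called), and 389 of its 609 windows of 31 bases also occur in a region of chromosome 17 that held 92.7 RPPM in C nB and 90.9 RPPM in C BMPC. The part of reads from that copy was not tested.

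At Batf3, 3 regions past the gene were open in GCB and partly in BMPC. Batf3 +26.2 kb (chr1:192948431-192948636) was at 10.1 and 6.09 RPPM in C GCB and at no more than 0.558 RPPM in any C nB library, a log2 fold change of 2.75 ± 0.35 (adjusted p = 4.23e-07, limma), and it fell to 1.2 ± 0.3 RPPM in C BMPC (log2 fold change −2.0 from C GCB). Batf3 +16.6 kb rose from 0.8 ± 0.5 RPPM in C nB to 5.7 ± 0.6 in C GCB and was at 3.8 ± 2.0 in C BMPC. Batf3 +22.6 kb (chr1:192944805-192945058) had the largest change of the 3. It was at 15.4 and 19.7 RPPM in C GCB, at 4.42, 4.74 and 5.29 RPPM in C BMPC and at 0.731, 0.565 and 0 RPPM in C nB, with a log2 fold change of 3.72 ± 0.34 from C nB to C GCB (adjusted p = 1.32e-09, limma).

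The Batf3 +22.6 kb value cannot be assigned to this site alone. Of its 224 windows of 31 bases, 143 also occur elsewhere in mm9, at 22 other places. One other region of the table lies at such a place, also on chromosome 1 (46132799 to 46133014), shares 99 windows with it and has the same pattern, at 0.393 RPPM in C nB, 9.52 in C GCB and 2.19 in C BMPC (log2 fold change 2.92 from C nB to C GCB). The aligner placed reads from such copies, and which copy they came from was not tested. The whole region is shown on the Batf3 strand with the searched motifs in capitals, here 1 IRF core, so that the repeated stretch can be recognised.
Batf3 +22.6 kb: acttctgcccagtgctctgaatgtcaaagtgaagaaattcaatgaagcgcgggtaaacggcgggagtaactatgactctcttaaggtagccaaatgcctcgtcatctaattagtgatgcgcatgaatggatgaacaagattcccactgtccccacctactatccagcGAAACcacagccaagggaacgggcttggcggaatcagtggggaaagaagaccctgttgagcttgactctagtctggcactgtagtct
Batf −6.9 kb and Batf3 +26.2 kb did not share windows with other places in the genome.

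**Figure D4:**
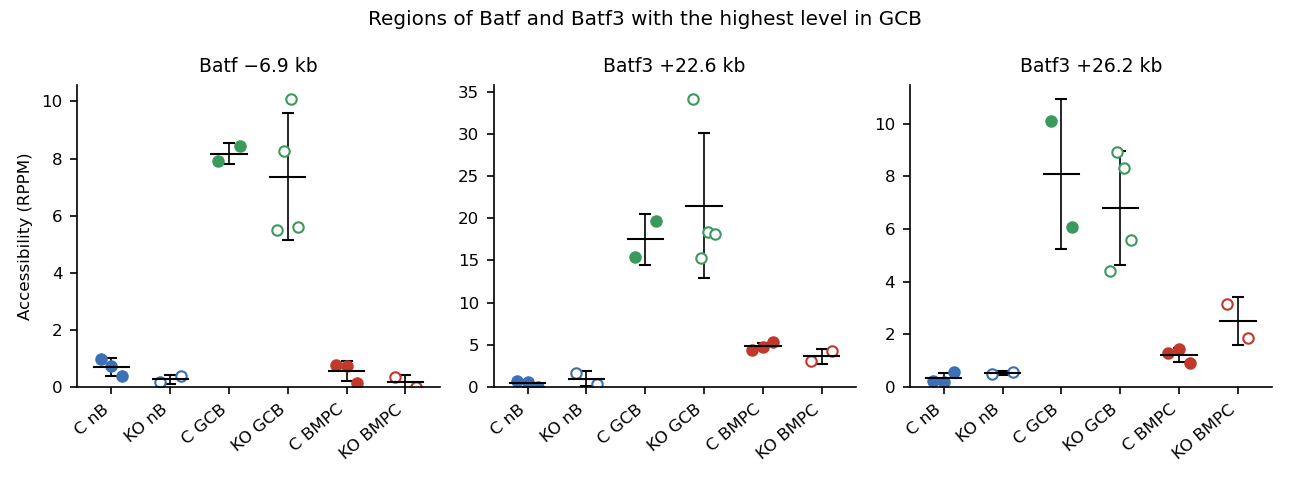
Points are libraries (filled C, open KO) with the group mean and SD, and the vertical axis gives RPPM from 0. In all 3 panels the GCB libraries lie above every nB and BMPC library; in the middle panel 1 KO GCB library stands at 34.1 RPPM, above the others.

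Batf3 +12.9 kb, which holds the match TGATTCA to the AP-1 pattern searched, rose from 8.4 ± 1.7 RPPM in C nB to 22.9 ± 1.3 in C BMPC (SD, n = 3 each, log2 fold change 1.36 ± 0.19, adjusted p = 8.63e-07, limma). In C GCB it was at 17.6 ± 5.0 RPPM (SD, n = 2), a log2 fold change of 0.97 that fell just below the size required. Batf3 −12.7 kb went the other way, from 5.9 ± 2.1 RPPM in C nB to 1.8 ± 1.7 in C BMPC. The start-site region of Batf3 was low everywhere, between 0.731 and 4.84 RPPM, and its log2 fold change from C nB to C GCB, 1.15 ± 0.35, only just passed (adjusted p = 0.00874, limma). Leaving out any of the C nB or C GCB libraries ended this call, with log2 fold changes from 0.92 to 1.30. The call was lost under 17 alternatives in all, among them edgeR's quasi-likelihood test, DESeq2 and a pseudocount of 5 RPPM. With that pseudocount the log2 fold change was 0.53.

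At Fosl2, neither region was called in any comparison of C cell types, and the region nearest its start (Fosl2 −1.0 kb) was at 13.6 ± 2.0 RPPM in C nB, 20.9 ± 0.4 in C GCB and 22.2 ± 4.5 in C BMPC (SD, n = 3, 2 and 3). In KO cells both regions were called from nB to BMPC. Fosl2 −1.0 kb rose from 15.3 and 10.2 RPPM to 34.5 and 37.3 RPPM (log2 fold change 1.45 ± 0.22, adjusted p = 2.92e-06, limma). Fosl2 −23.9 kb, at 2.47 and 2.76 RPPM in KO nB and 0 and 0.373 RPPM in KO BMPC, fell by 1.62 on the log2 scale, a call that was lost without either KO nB library or the first KO BMPC library. At Jund, the region 2.2 kb upstream rose from 15.0 ± 1.3 RPPM in C GCB to 48.2 ± 2.7 in C BMPC (log2 fold change 1.62 ± 0.17, adjusted p = 7.46e-09, limma) and was at 30.5 ± 1.4 RPPM in C nB.

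No region of the 8 genes was called between KO and C cells in any cell type, by limma, by the quasi-likelihood or likelihood ratio test of edgeR or by DESeq2. Over all regions limma called 0% higher and 0% lower in nB, 0.0317% higher and 0% lower in GCB, and 0.0907% higher and 0.0136% lower in BMPC. The BMPC count over all regions, 60 higher and 9 lower by limma, was 962 and 239 by the quasi-likelihood test, 1329 and 348 by the likelihood ratio test and 404 and 85 by DESeq2. It ranged from 1 and 0 without either KO BMPC library to 187 and 22 without KO GCB replicate 1.

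At an unadjusted p under 0.05, 0 of the 56 regions were higher and 2 lower in KO nB, when 0.63% and 1.04% of all regions were. In GCB 0 were higher and 8 lower, against 7.45% and 4.34% of all regions, and in BMPC 4 were higher and 4 lower, against 6.96% and 2.59%. The median log2 fold change of the 56 regions was −0.03 in nB, −0.10 in GCB and −0.07 in BMPC, and that of all regions −0.01, 0.03 and 0.03.

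The smallest p in BMPC was at Fosl2 −1.0 kb, upstream of the start of Fosl2, which encodes Fra-2. It was at 27.3, 20.1 and 19.2 RPPM in the C BMPC libraries and at 34.5 and 37.3 RPPM in the KO BMPC libraries, which did not overlap. The log2 fold change was 0.69 ± 0.20 (unadjusted p = 0.00174, adjusted p = 0.105, limma). In this region the AP-1 motif TGACTCA lies upstream of the Fosl2 start, within chr5:32438216-32438244.
Fosl2 −1.0 kb: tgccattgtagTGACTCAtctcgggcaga

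In GCB the smallest p was at Fosb −11.6 kb, the region with the AP-1 motif and the composite, at 51.9 and 62.8 RPPM in C and 26.4, 40.7, 38.1 and 44.7 RPPM in KO (log2 fold change −0.62 ± 0.21, unadjusted p = 0.00767, adjusted p = 0.241, limma). In nB it was at Batf3 +12.9 kb (log2 fold change −0.48 ± 0.22, unadjusted p = 0.0339, adjusted p = 1, limma). For the difference in the genotype effect between BMPC and nB, the smallest p was at Fos −37.7 kb (1.0 ± 0.35, adjusted p = 0.66, limma), which held 12.6 to 15.9 RPPM in C BMPC and 19.8 and 30.1 RPPM in KO BMPC. For that between BMPC and GCB it was at Batf +11.7 kb (−0.98 ± 0.35, adjusted p = 0.422, limma). By limma neither interaction was called in any of the 56 regions, nor, with 0% both higher and lower, in any region of the table. The quasi-likelihood test of edgeR called 35 higher and 14 lower of all regions for the first interaction and 18 and 1 for the second, and none of the 56 for either. At an unadjusted p under 0.05 in limma, 5 of the 56 regions were higher and 1 lower for the first, against 3.95% and 1.3% of all regions, and 2 higher and 3 lower for the second, against 4.63% and 3.7%. With 2 to 4 libraries per group these values do not show that the genotypes were alike.

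**Figure D5:**
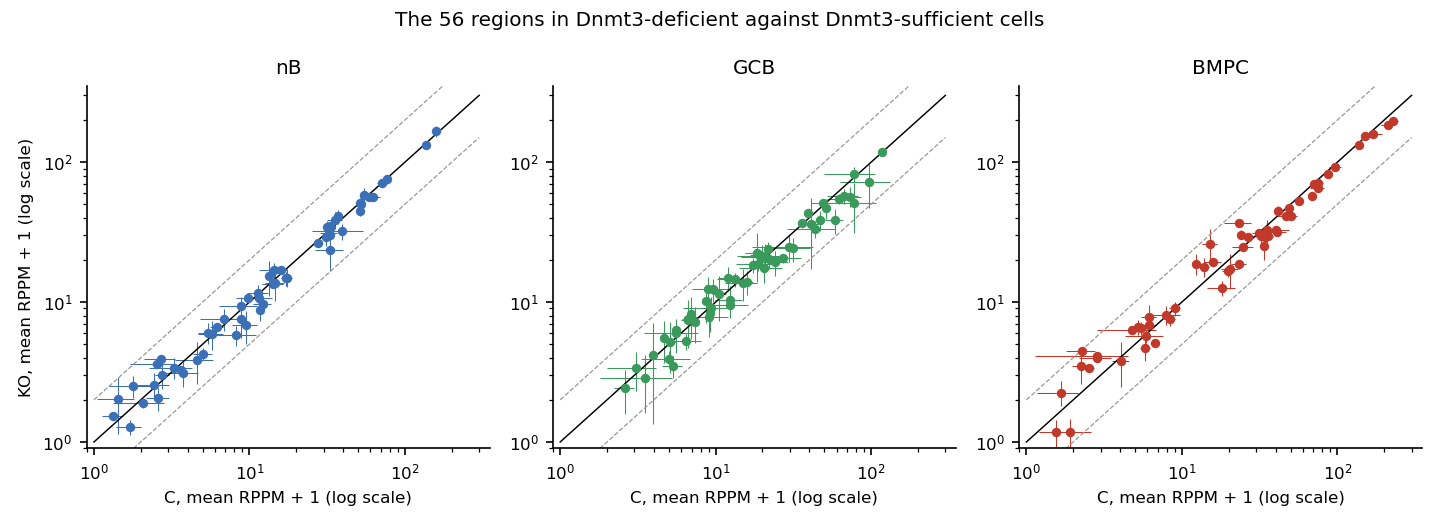
Each point is 1 of the 56 regions, with the C mean (horizontal) and KO mean (vertical) plotted as RPPM + 1 on log axes for nB, GCB and BMPC. Bars are SD over libraries, the solid line marks equal values and the dashed lines 2-fold differences. The regions lie along the solid line from about 1 to over 200 RPPM.

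The end regions of Fos, Fosb and Jun opened in both genotypes. From nB to BMPC, 16 of the 19 regions called in C cells were also called in KO cells in the same direction, out of 18 called in KO. Over all regions 20160 were shared in this way, which is 79.9% of those called in C and 86.3% of those called in KO, so the share among the 56 was near that of the table. At Fos +4.7 kb the log2 fold change between KO and C was −0.19 ± 0.24 in BMPC (adjusted p = 0.985) and −0.62 ± 0.23 in GCB (adjusted p = 0.277, limma).

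The sum of RPPM over all regions of a gene was highest in BMPC for Fos, Fosb and Jun. In C cells this also held for Junb, Jund, Fosl2 and Batf, by smaller margins. In C cells the Fos sum was 287 ± 10.7 RPPM in nB, 283 ± 64.3 in GCB and 586 ± 28.0 in BMPC (SD, n = 3, 2 and 3). The Fosb sum was 301 ± 13.1, 357 ± 89.0 and 589 ± 38.0 RPPM, and the Jun sum 206 ± 8.14, 178 ± 20.4 and 346 ± 37.3 RPPM. These sums include the end regions described above. From C nB to C BMPC, the mean went from 4.40 to 209 RPPM at Fos +4.7 kb and from 32.0 to 228 RPPM at Fosb +8.5 kb. At Jun +3.6 kb it went from 13.4 to 168 RPPM. Sums without the end regions were not taken. At these 3 genes the BMPC values stood apart from the others, and nB and GCB were within their spread at Fos. Batf3 alone had its highest C sum in GCB, at 88.4 ± 4.41 RPPM, against 37.0 ± 5.58 in nB and 53.4 ± 2.72 in BMPC. This Batf3 sum includes Batf3 +22.6 kb, at 17.5 RPPM in C GCB and 0.43 in C nB, which cannot be assigned to its site alone. It also includes 3 regions whose nearest transcript is Nsl1. The sums of Junb, 202 to 236 RPPM, and of Batf, 84.8 to 108 RPPM, varied less between the C groups.

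Other genes of the pathway are given as counts beside the share of all regions, which was 18% higher and 20.1% lower from C nB to C BMPC and 14.2% and 8.47% from C nB to C GCB. The list of other AP-1 and related bZIP genes had 70 regions at 18 genes, of which 9 were called higher and 16 lower from C nB to C BMPC. The MAP kinases that activate AP-1, with SRF and its partners, had 78 regions at 16 genes, with 15 higher and 9 lower. The MAP kinase phosphatases, which switch these kinases off, had 76 regions at 9 genes, with 16 higher and 22 lower. The median log2 fold changes of the 3 lists were 0.15, 0.03 and −0.23, against 0.03 for all regions. From C nB to C GCB the 3 lists had 10, 14 and 16 regions called higher and 5, 3 and 3 called lower. No region of these lists was called between KO and C in any cell type.

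Some single genes of these lists changed strongly. At Dusp1, an immediate-early phosphatase of MAP kinases, the region 1957 bases past the transcript rose from 15.2 RPPM in C nB to 36.2 in C GCB and 45.8 in C BMPC (log2 fold change 1.53 in BMPC). At Maf, a bZIP factor, the region at the start fell from 67.8 to 10.2 RPPM (log2 fold change −2.65), and at Dusp2 the start-site region fell from 167 to 50.2 RPPM (log2 fold change −1.71). In GCB, a region in Map2k6, the kinase of p38, was at 112 RPPM against 1.22 RPPM in C nB (log2 fold change 5.68). These 4 genes were chosen after their values were seen.

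Of the 8 start-site regions, those of Fosb, Fosl2 and Batf3 spanned at least 1 log2 unit over the 6 groups. Among 12192 promoter regions of other genes with a mean of at least 5 RPPM, the pattern of Fosb was closest to those of Snap23, Ccs and Vps37c, at Euclidean distances of 0.124, 0.135 and 0.166 between centred group means of log2(RPPM + 1). For Fosl2 they were Plekha7, Tert and Gsta4, at 0.192, 0.224 and 0.280, and for Batf3 they were Rimklb, Rad54l and Zbtb6, at 0.215, 0.256 and 0.290. Each distance rests on 6 group means.

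The identity of the cells was checked at marker genes by their summed RPPM. The 8 naive B cell genes gave 1302 to 1402 RPPM in nB, 726 to 848 in GCB and 360 to 428 in BMPC. The sum of the 6 germinal center genes was highest in GCB, at 791 to 922 RPPM against 440 to 489 elsewhere. That of the 7 plasma cell genes was highest in BMPC, at 1375 to 1476 against 727 to 900. Within these lists, only Ms4a1, Mef2b and Irf4 were not highest in the cell type of their list in C cells. Ms4a1, a naive B cell gene, was at 104 RPPM in C nB and 107 in C GCB. Mef2b was at 114 RPPM in C GCB and 160 in C BMPC, and Irf4 at 246 in C nB and 182 in C BMPC. Prdm1 differed little between C nB (330 RPPM) and C BMPC (350), and Bcl6 was higher in KO nB (272) than in KO GCB (239). Of the markers of other cells, Cd3g, Cd8a, Thy1, Trac, Lyz2, S100a8, Elane, Mpo, Ly6g, Hba-a1 and Gata1 had no region. The 3 myeloid genes with regions, Itgam, Csf1r and S100a9, summed to 69.5 to 78.6 RPPM in nB, 42.6 to 72.6 in GCB and 91.8 to 112 in BMPC, with Itgam at 104 RPPM in C BMPC and Csf1r and S100a9 lower there than in C nB. The paper describes a dump channel with antibodies to CD11b, CD11c, CD90.2 and Ly6-G, used to exclude autofluorescent cells. The part of other cells in these results was not tested. The 3 T cell genes with regions gave 68.0 to 78.3 RPPM in nB, 25.9 to 37.6 in GCB and 50.4 to 83.0 in BMPC. Among them Cd4 went in the order of the Fos, Fosb and Jun end regions, from 1.22 RPPM in C nB to 12.5 in C GCB and 24.5 in C BMPC, while Cd3d was highest in nB. The 2 erythroid genes gave 48.9 to 73.0, 29.5 to 67.5 and 56.9 to 67.3 RPPM, with Hbb-b1 at 2.28 RPPM in C GCB and 21.9 in KO GCB. In bulk libraries a larger share of open cells and more open chromatin per cell cannot be told apart.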

How the data were processed

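The authors mapped ATAC-seq reads to mm9 with Bowtie, called peaks per sample with MACS2, joined them into a union and deposited, for each region and library, RPM values, the reads per 1000000 reads in regions (RPPM here). The submitters' processing notes name Bowtie 1.1.1 and MACS2 2.1.0.20140616. The study's methods name a later Bowtie with default options, and which version made these files is not settled, so the handling of reads with several possible places is uncertain. The deposited fold changes, p-values and FDR of the authors' own comparisons were not used. All RPPM values were whole multiples of 1 read (tolerance 0.01), which gave 4104875 to 6079018 reads in regions for nB, 907959 to 2280954 for GCB and 5357687 to 8232313 for BMPC. The 2 chrM regions took 2.56% to 4.59% of reads outside GCB and 7.43% to 10.1% in GCB. A value of 3 reads ranged from 0.364 to 3.30 RPPM and covers counting error only.

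Under R 4.3.3, limma 3.58.1 was fitted to log2(RPPM + 1), a scale that understates the change of low regions, with 6 group means in 1 fit of 16 libraries, a variance trend and Benjamini-Hochberg adjustment over 66177 regions. Alternatives were pseudocounts of 0.1 and 5 RPPM, a filter at a mean of 1 RPPM, TMM scaling, quantile normalization, a fit without the variance trend, a fit of only the groups compared, a limit of 0.05 on the adjusted p, each library left out, a block for the GCB pool names, and edgeR 4.0.16 and DESeq2 1.42.0 on the recovered reads. On simulated data with 200 regions of 66177 changed 4-fold, limma recovered 69.5% for KO against C in nB, 71.5% in GCB and 71.5% in BMPC, with 0, 11 and 0 false calls, and edgeR's quasi-likelihood test 89%, 72% and 93%, with 1 false call in each. Motifs and 31-base windows were searched in mm9 with pysam 0.24.0 and numpy 2.4.6, tables were read with pandas 2.3.3 in Python 3.11.15 and plots drawn with matplotlib 3.10.9.

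The 8 genes, the gene lists and the tests were chosen with earlier results of these data known. Regions were named by rule: for each gene the start-site region, the 2 others with the highest mean, the called region with the largest change from C nB to C BMPC and to C GCB, and for each comparison the region with the largest called change or, with none called, the smallest p. Regions outside this rule (Jund −2.2 kb is within it) were Fos −1.6, −20.8, −26.7 and −45.9 kb, Batf −25.6 kb, Batf3 −12.7, +16.6 and +26.2 kb and Jun −11.5 kb, chosen after their values were seen. The labels do not say whether all libraries came from separate experiments, and p-values measure the spread between these libraries. The full genotype names and single values of 1 gene in the bZIP list are not reported here.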

Additional observations from a re-analysis of the deposited data

Results flagged for a closer look

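In KO GCB, the only group with 4 libraries, each named region and each gene sum was searched for a library far from the others by Dixon's gap ratio. Of 37 such tests, 1 passed the 95% critical value for 4 libraries, where chance flags about 1 in 20. Batf3 +22.6 kb stood at 34.1 RPPM in the first KO GCB library, against 15.3, 18.4 and 18.2 RPPM in the other 3. That library had the fewest reads, 907959 in regions, so that 34.1 RPPM is 31 reads. This is also the region of which 143 of 224 windows of 31 bases occur elsewhere in the genome. Its part in the value was not tested. By limma no genotype effect in the 56 regions differed between cell types at the adjusted p used.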

How the results depend on the processing

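No called value of a named region changed direction under the alternatives run. The median over all regions between KO and C, close to 0, did change sign: TMM scaling gave −0.02 instead of 0.03 for GCB and −0.03 instead of 0.03 for BMPC, and quantile normalization gave 0.001 instead of −0.01 for nB. The 56 results for single named regions, each taken with 1 comparison, gave 1451 values that kept their side of the threshold and 62 that no longer passed, 10 of them with a pseudocount of 5 RPPM, 6 with quantile normalization, 5 with a pseudocount of 0.1 RPPM and 4 without the variance trend. The pseudocount of 5 RPPM, which shrinks the change of low regions, gave 7 called regions of the 56 instead of 14 from C nB to C GCB, 12 instead of 19 from C nB to C BMPC, 12 instead of 20 from C GCB to C BMPC, 8 instead of 14 from KO nB to KO GCB and 11 instead of 18 from KO nB to KO BMPC. The quasi-likelihood test of edgeR on recovered reads called 15, 21, 22, 17 and 23 in these 5 comparisons.

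Leaving out each library in turn gave 11 to 17 called regions from C nB to C GCB, 17 to 19 from C nB to C BMPC, 13 to 21 from C GCB to C BMPC (13 without the first C GCB library, against 20), 11 to 17 from KO nB to KO GCB, 13 to 20 from KO nB to KO BMPC and 13 to 18 from KO GCB to KO BMPC, and 0 between genotypes. Without the first C GCB library, Fosb +8.5 kb was no longer called from C GCB to C BMPC (log2 fold change 0.91), nor was Junb +3.9 kb without the second (0.99). The cause was not tested.

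Counting only regions by their nearest transcript, the Batf sums were 79.4 RPPM in C nB, 88.9 in C GCB, 89.8 in KO GCB, 95.5 in C BMPC and 77.2 in KO BMPC. Those of Batf3, which still include Batf3 +22.6 kb, were 27.8 in C nB, 24.3 in KO nB, 71.2 in C GCB, 75.9 in KO GCB, 48.8 in C BMPC and 60.5 in KO BMPC. With the GCB pool names as a replicate block, 0 of the 56 regions were called between KO and C in GCB, and Fosb −11.6 kb had a log2 fold change of −0.41 (adjusted p = 0.757, limma). Whether equally named pools belong together is not stated in the labels. The difference between the 2 shared pool names had a correlation of 0.0628 between genotypes over 66177 regions. With 1 such difference per genotype, in libraries of low depth, this value cannot settle the question. Depth limits GCB most, where low regions rest on few reads.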
